A study of Mus musculus with 8 samples.

Results

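The small leucine-rich proteoglycans are secreted matrix proteins that coat collagen fibrils. The genes were taken by symbol from the deposited expression table of mouse skin, and all 8 of the named members, Dcn, Bgn, Aspn, Lum, Fmod, Prelp, Omd and Ogn, were present among its 24612 genes. Each has a core of leucine-rich repeats, and most carry chains of chondroitin, dermatan or keratan sulfate. Bound along the surface of a fibril, they set its diameter and spacing, and several of them bind TGF-beta or signal through receptors once released. In skin they are made mainly by dermal fibroblasts, and mice that lack decorin or lumican have fragile skin with irregular collagen fibrils.

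RNA was sequenced from skin homogenate of male C57 BL/6 J mice, with 2 PBS, 3 bleomycin and 3 celastrol libraries, all taken at 21 days after treatment that began at 6 weeks of age. The PBS group received 0.1 mL of phosphate-buffered saline under the skin and the bleomycin group 0.1 units of bleomycin, a DNA-damaging drug used to model skin fibrosis. The celastrol group received this plant triterpenoid daily into the peritoneum at 1 or 2 mg/kg. Neither the dose behind each celastrol library nor any bleomycin given to celastrol mice is stated in the labels. They also do not say whether libraries of a group came from separate animals, so the p-values measure only the spread between these libraries. Values are the authors' size-factor-normalized gene values on a linear scale.

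The libraries held between 14900000 and 37100000 reads, estimated from the value that 1 read takes in each of them. Celastrol 2 stood apart on the first principal component, which held 32.7% of the variance, at a score of 237 where the other libraries lay between -57.3 and -3.63, and no pair of libraries was a duplicate (Pearson's r between 0.837 and 0.954 over 28 pairs). The lowest estimated number of reads behind any member value was 23, for Fmod in Celastrol 3, and the highest was 74821, for Dcn in PBS 2. Counting intervals below are exact Poisson intervals on these estimated reads and cover counting error only. The 10 keratinocyte markers examined were above 0 in every library and took between 0.898% and 1.91% of all values, while of the 20 fibroblast markers Prrx2 and Sfrp2 were at 0 in some library.

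The members lie in family clusters, by GENCODE M21 on the mm10 build that the submitters' processing notes name. Dcn (chr10:97479609-97518143, plus strand) and Lum (chr10:97565128-97572703, plus strand) are neighbours, 47.0 kb apart. Aspn (chr13:49544443-49567565), Omd (chr13:49582462-49592822) and Ogn (chr13:49608046-49624501) follow each other on the plus strand, with gaps of 14.9 and 15.2 kb. They come after the related gene Ecm2, which ends 11.7 kb before Aspn. These genes lie within the span of Cenpp, a centromere protein gene on the opposite strand, which shared 7 bp of exon with Aspn and 0 bp with Omd and Ogn. Prelp (chr1:133910304-133921414, minus strand) and Fmod (chr1:134037254-134048277, plus strand) are 116.0 kb apart. An antisense gene, Gm15851, covered 9.68% of the Prelp exons, and since strand use in counting is not stated its reads cannot be told apart from those of Prelp. Bgn (chrX:73483602-73495933, plus strand) stands alone.

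Start regions were compared by their sequence. RefSeq (GRCm38.p6) gave a window of 250 bases before and 50 after the start for 6 of the 8 members: Bgn, Fmod, Ogn, Aspn, Prelp and Omd. Shown are the 3 neighbours on chromosome 13, whose levels moved together across libraries, and Bgn and Fmod, whose levels followed other patterns. Capitals mark matches, on either strand, to TATAAA (the TATA box), CCAAT (the CCAAT box), GGGCGG (the GC box), TGANTCA (the AP-1 site) and CAGACA (the CAGA element that Smad proteins bind), and matches may overlap, as the TATAAA pair of Ogn and the GC boxes next to the Bgn start do.
Aspn promoter (chr13:49544193-49544492, plus strand): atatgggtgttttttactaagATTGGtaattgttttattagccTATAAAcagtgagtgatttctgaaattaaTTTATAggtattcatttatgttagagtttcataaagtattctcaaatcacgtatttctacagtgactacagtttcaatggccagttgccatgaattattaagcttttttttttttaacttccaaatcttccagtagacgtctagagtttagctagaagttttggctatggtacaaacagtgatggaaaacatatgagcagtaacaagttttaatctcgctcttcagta
Omd promoter (chr13:49582212-49582511, plus strand): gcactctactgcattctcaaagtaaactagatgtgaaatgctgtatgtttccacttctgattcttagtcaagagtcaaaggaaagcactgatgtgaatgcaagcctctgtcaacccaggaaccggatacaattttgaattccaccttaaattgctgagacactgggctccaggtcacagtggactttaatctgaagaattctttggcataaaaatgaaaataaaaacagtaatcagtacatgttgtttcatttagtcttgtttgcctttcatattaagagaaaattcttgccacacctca
Ogn promoter (chr13:49607765-49608064, plus strand): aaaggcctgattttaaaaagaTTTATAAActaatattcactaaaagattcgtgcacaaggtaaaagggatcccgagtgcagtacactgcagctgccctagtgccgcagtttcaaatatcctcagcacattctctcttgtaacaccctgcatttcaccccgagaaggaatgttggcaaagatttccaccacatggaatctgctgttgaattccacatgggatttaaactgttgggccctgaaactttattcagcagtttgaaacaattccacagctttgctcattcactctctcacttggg
Bgn promoter (chrX:73483351-73483650, plus strand): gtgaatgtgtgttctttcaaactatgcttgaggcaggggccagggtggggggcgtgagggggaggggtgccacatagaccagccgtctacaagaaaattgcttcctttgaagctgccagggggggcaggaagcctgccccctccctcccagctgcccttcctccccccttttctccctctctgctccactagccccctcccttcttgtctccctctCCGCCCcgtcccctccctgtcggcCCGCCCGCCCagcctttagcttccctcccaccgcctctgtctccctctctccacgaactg
Fmod promoter (chr1:134037004-134037303, plus strand): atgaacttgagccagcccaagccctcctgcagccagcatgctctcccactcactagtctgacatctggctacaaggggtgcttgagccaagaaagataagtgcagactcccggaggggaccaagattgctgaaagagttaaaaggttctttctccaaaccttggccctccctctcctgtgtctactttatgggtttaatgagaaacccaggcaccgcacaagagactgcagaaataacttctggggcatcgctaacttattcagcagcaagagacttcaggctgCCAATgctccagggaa

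The 3 windows on chromosome 13 were poor in G and C, at 31% for Aspn, 37.7% for Omd and 42.3% for Ogn, beside 63.7% for Bgn and 51.0% for Fmod. Prelp stood at 55.3%, and the median of all promoter windows was 52.7%. A link between base content and the patterns across libraries was not tested. Matches to TATAAA were found in Aspn, where the nearest to the start began at position -178, and in Ogn, where the overlapping matches on the 2 strands began at -229 and -227. Such a match occurs in 13.6% of the 32851 promoter windows of the RefSeq table. Bgn held 3 GC boxes, the nearest starting at -6, and a GC box occurs in 35.7% of windows. CCAAT was found in Aspn and Fmod and occurs in 37.4% of windows. TGANTCA (7.81% of windows) matched in none of the 6 members, and CAGACA (21.0%) matched in Prelp only. The window of Omd held no match to any of the 5 motifs.

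Decorin had the highest value of the 8 genes per length of exon. In PBS skin, the normalized value per kilobase of merged exons was 9810 ± 1268 (SD, n = 2) for Dcn, 4820 ± 1.73 for Lum, 3449 ± 1237 for Aspn, 1668 ± 204 for Ogn and 682 ± 121 for Bgn. Prelp (240 ± 167), Omd (215 ± 50) and Fmod (61.0 ± 39.9) were the lowest. In PBS skin the order of Prelp and Omd was within their spread, and Lum exceeded Aspn by little more than 1 SD of Aspn. Dcn was first in all 3 groups and Fmod last, although Fmod (66.5 ± 47.9) and Omd (69.0 ± 7.89) could not be ordered in bleomycin skin. Bgn and Ogn could not be ordered in bleomycin skin (532 ± 53.0 and 576 ± 110, n = 3) or in celastrol skin (515 ± 83.5 and 512 ± 316, n = 3), whereas in PBS skin the Ogn libraries were all above those of Bgn. Merged exons pool all annotated transcripts of a gene, so a gene with many isoforms can be set too low on this scale.

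Bleomycin skin was set against PBS skin first. The decorin and lumican transcripts fell, by 4.29-fold and 4.84-fold, and the remaining 6 members did not pass. Changes are log2 differences from limma with the standard error (SE), and a gene passed at a Benjamini-Hochberg adjusted p below 0.05 over 23185 genes. Of the 8 members 2 fell and 0 rose, where 0.224% of all genes tested fell, 0.453% rose and 0.677% passed in either direction. The median change of the members was -1.58, beside -0.001 over all genes tested. In 6 of 8 members every bleomycin library lay below every PBS library, which was so for 11.6% of all genes, and in 0 of 8 they lay above (12% of all genes). At an unadjusted p below 0.05 stood 5 of 8 members and 6.82% of all genes.

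Changes of different size were measured in the class I members, decorin, biglycan and asporin. Decorin, which binds type I collagen and TGF-beta, stood at 52035 and 62506 in the PBS libraries and at 17978, 9373 and 13898 in Bleomycin 2, 3 and 4. The groups were well apart, and the highest bleomycin library was Bleomycin 2. Dcn fell by 2.10 ± 0.40 (limma adjusted p = 0.0493, 95% interval -3.0 to -1.21). Asporin, a calcium- and collagen-binding relative that restrains TGF-beta, stood at 6061 and 10177 in PBS and at 2627, 2161 and 2034 in bleomycin skin. The groups did not overlap, and the change of -1.80 ± 0.45 did not pass (limma adjusted p = 0.138). Biglycan, which can act as a ligand of Toll-like receptors when released from the matrix, stood at 4680 and 3637 in PBS and at 3189, 3589 and 2950 in bleomycin skin. Its lowest PBS library and its highest bleomycin library nearly met, and the change was -0.35 ± 0.20 (limma adjusted p = 0.958, 95% interval -0.79 to 0.08).

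The class II members, lumican, fibromodulin, Prelp and osteomodulin, also had unequal changes. Lumican, which limits the sideways growth of fibrils, stood at 11801 and 11795 in PBS and at 3736, 2171 and 1781 in bleomycin skin. The PBS libraries were almost equal and every bleomycin library was far below them. Lum fell by 2.28 ± 0.39 (limma adjusted p = 0.0307, 95% interval -3.13 to -1.42). Osteomodulin, best known from bone and dentine, stood at 404 and 563 in PBS and at 175, 140 and 151 in bleomycin skin. Its groups did not overlap, and the change of -1.62 ± 0.50 did not pass (limma adjusted p = 0.293). Fibromodulin, which shares a collagen-binding site with lumican, stood at 295 and 108 in PBS and at 402, 115 and 143 in bleomycin skin. The groups overlapped, with Bleomycin 2 the highest of all 8 libraries, and the change was 0.07 ± 0.69 (limma adjusted p = 1, 95% interval -1.46 to 1.60). Prelp, which links collagen to the perlecan of basement membranes, stood at 1294 and 440 in PBS and at 930, 297 and 456 in bleomycin skin. These groups overlapped too, and the change was -0.59 ± 0.60 (limma adjusted p = 1, 95% interval -1.92 to 0.74).

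Osteoglycin, the class III member and a regulator of fibril assembly, stood at 3910 and 4651 in PBS and at 1798, 1367 and 1270 in bleomycin skin. The groups did not overlap, and the change of -1.54 ± 0.39 did not pass (limma adjusted p = 0.139, 95% interval -2.40 to -0.69).

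**Figure D1:**
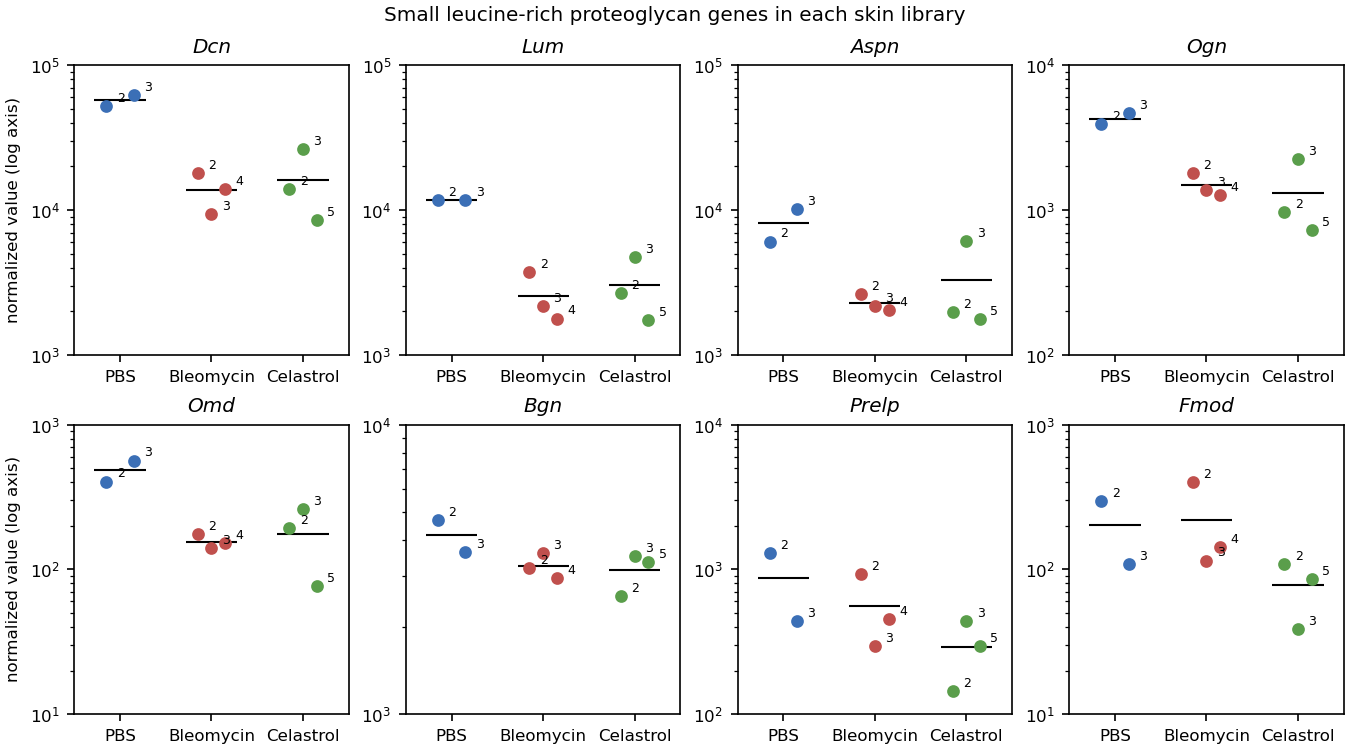
Normalized value of each gene (log axis) in the PBS, bleomycin and celastrol libraries. Each point is 1 library with its replicate number, and the line is the group mean. Dcn, Lum, Ogn and Omd have both PBS libraries above all others, as does Bgn, which varies little. Aspn has PBS 2 just below Celastrol 3, and Fmod and Prelp are high in PBS 2 and Bleomycin 2.

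The calls for decorin and lumican were not stable when 1 library was left out. In fits without 1 library, 0 members passed without PBS 2, PBS 3, Bleomycin 3, Bleomycin 4 or Celastrol 2, 2 passed without Bleomycin 2 or Celastrol 5, and 4 passed without Celastrol 3. The size of the change was steadier, from -2.32 to -1.85 for Dcn and from -2.59 to -2.05 for Lum over these 8 fits. In a fit of the PBS and bleomycin libraries alone 0 members passed.

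Celastrol skin was compared with PBS skin next. Decorin, lumican and osteoglycin were lower in celastrol skin, by 3.90-fold, 4.20-fold and 3.66-fold, and the remaining 5 members did not pass. Of the 8 members 3 fell and 0 rose, where 0.543% of all genes tested fell, 0.824% rose and 1.37% passed in either direction. The median change of the members was -1.55, beside -0.07 over all genes. The PBS libraries are those of the comparison above, so both comparisons share them. In 6 of 8 members every celastrol library lay below every PBS library, which was so for 13.7% of all genes, and in 0 of 8 they lay above (13.2%). At an unadjusted p below 0.05 stood 6 of 8 members and 12% of all genes. Scaling the libraries to equal totals moved the median of all genes to -0.17 and that of the members to -1.66.

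Decorin stood at 13956, 26291 and 8509 in Celastrol 2, 3 and 5. Celastrol 3 was the highest and still below both PBS libraries, and Dcn fell by 1.96 ± 0.40 (limma adjusted p = 0.0447). Lumican stood at 2675, 4714 and 1751 and fell by 2.07 ± 0.39 (limma adjusted p = 0.0315). Osteoglycin stood at 975, 2239 and 726 and fell by 1.87 ± 0.39 (limma adjusted p = 0.0458). In all 3 of these genes Celastrol 3 was the highest celastrol library and Celastrol 5 the lowest.

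Asporin, at 1984, 6109 and 1772, reached in Celastrol 3 the level of PBS 2, so that its groups overlapped (change -1.50 ± 0.45, limma adjusted p = 0.181). Osteomodulin stood at 192, 260 and 76.9, below both PBS libraries (-1.60 ± 0.50, limma adjusted p = 0.197). Prelp stood at 144, 437 and 297, and its highest celastrol library differed from PBS 3 by less than the 95% counting interval of either (385 to 494 and 398 to 486). Its change was -1.50 ± 0.60 (limma adjusted p = 0.341). Fibromodulin, at 108, 38.8 and 85.4, overlapped with PBS 3 (-1.32 ± 0.69, limma adjusted p = 0.502). Biglycan stood at 2559, 3507 and 3355 and had the smallest change of the 8 genes, -0.41 ± 0.20 (limma adjusted p = 0.456, 95% interval -0.84 to 0.03). All its celastrol libraries were below PBS, but the counting intervals of Celastrol 3 and PBS 3 overlapped (3358 to 3661 and 3514 to 3763).

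These calls were also not stable when 1 library was left out. In fits without 1 library, Dcn ranged from -2.39 to -1.57, Lum from -2.45 to -1.73 and Ogn from -2.34 to -1.53. Without PBS 2, PBS 3, Bleomycin 3, Celastrol 2 or Celastrol 5, 0 members passed. The number was 1 without Bleomycin 4, 3 without Bleomycin 2 and 4 without Celastrol 3. In a fit of the PBS and celastrol libraries alone 0 members passed.

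Celastrol skin was then set against bleomycin skin. For the members 0 of 8 passed in limma, as did 0 of 23185 genes (0% in either direction), where 898 genes (3.87%) had an unadjusted p below 0.05. Of the members, fibromodulin alone was among the latter. It stood at 402, 115 and 143 in bleomycin skin and at 108, 38.8 and 85.4 in celastrol skin. Every celastrol library was below every bleomycin library, as for 4.59% of all genes (0 of 8 members lay wholly above, beside 4.13%), but Celastrol 2 and Bleomycin 3 differed by less than their counting intervals (83.8 to 138 and 92.3 to 142). Its change was -1.39 ± 0.62 (limma unadjusted p = 0.048, adjusted p = 0.975).

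For the other members the 95% intervals spanned 0. The change was 0.14 for Dcn (-0.66 to 0.94), 0.20 for Lum (-0.56 to 0.97), -0.33 for Ogn (-1.09 to 0.44) and 0.30 for Aspn (-0.59 to 1.19). It was 0.02 for Omd (-0.96 to 1.00), -0.91 for Prelp (-2.10 to 0.28) and -0.06 for Bgn (-0.45 to 0.34). Intervals of this width leave room for a fold between 0.633 and 1.92 in Dcn and between 0.678 and 1.96 in Lum, whereas that of Bgn reached from 0.735-fold to 1.26-fold. Equality of the groups is not shown by these tests.

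**Figure D2:**
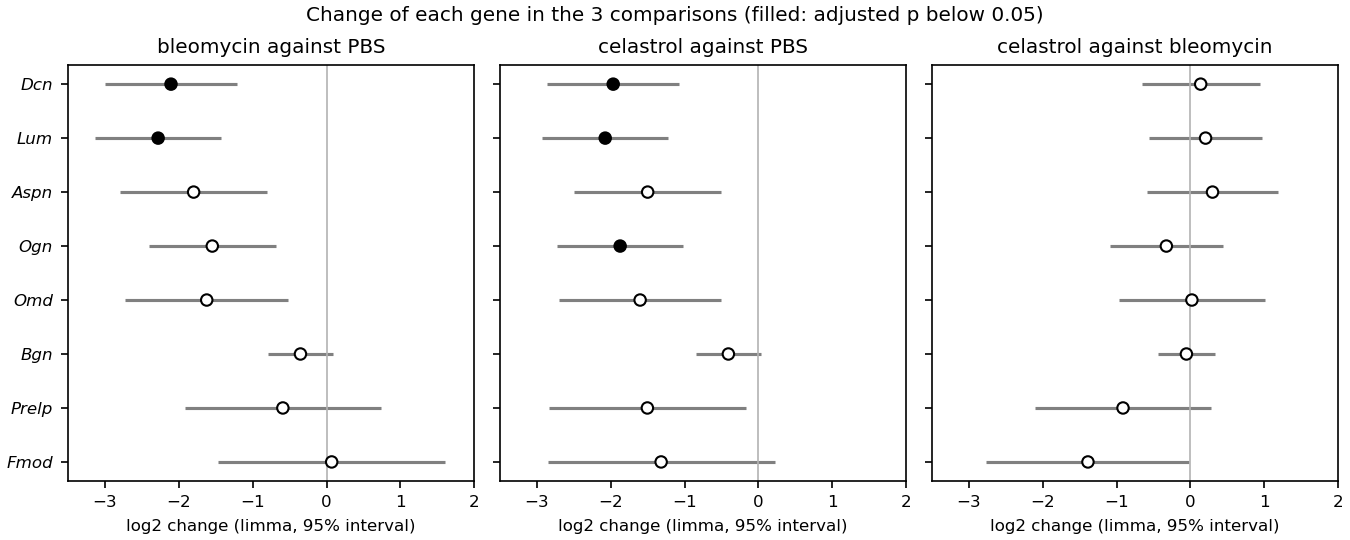
Log2 change of each gene in the 3 comparisons, with the 95% interval of the limma fit over all 8 libraries. Filled points passed at an adjusted p below 0.05, which were Dcn and Lum for bleomycin against PBS, Dcn, Lum and Ogn for celastrol against PBS, and 0 genes for celastrol against bleomycin.

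Among themselves the members formed a close group of 5 and 3 genes apart from it. Across the 8 libraries, log2 values of Dcn, Lum, Ogn, Aspn and Omd correlated with Pearson's r between 0.913 and 0.971 in all 10 pairs. These points share library, depth and the treatment groups, so the values only describe the libraries. Fmod correlated with the other members at r between -0.102 and 0.624, with Prelp, its neighbour on chromosome 1, the highest. Bgn reached at most 0.704, also with Prelp. The 5 genes of the close group are the members in the clusters on chromosomes 10 and 13. Relatives that are not members differed. Kera and Epyc follow Lum on chromosome 10. Kera stood at 64.7 and 149 in PBS, 81.9, 65.4 and 71.3 in bleomycin and 91.9, 18.6 and 45.5 in celastrol skin. Epyc stood at 20.2 and 12.1 in PBS, 7.57, 22.2 and 8.82 in bleomycin and 0 in celastrol skin. Ecm2, the neighbour of Aspn on chromosome 13, fell in both comparisons with PBS.

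The range over libraries also differed by gene. From the highest to the lowest library Bgn varied 1.83-fold, beside 7.35-fold for Dcn, 6.74-fold for Lum, 6.41-fold for Ogn, 5.74-fold for Aspn and 7.32-fold for Omd. Fmod varied most, 10.4-fold from Bleomycin 2 to Celastrol 3, and Prelp 8.96-fold from PBS 2 to Celastrol 2. Within PBS skin Prelp differed 2.94-fold and Fmod 2.73-fold between the libraries, where Lum differed 1.00-fold and Ogn 1.19-fold.

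The make-up of the proteoglycan transcripts differed between libraries. Per exon length, Dcn held 46.4% and 47.2% of the summed value of the 8 genes in PBS, between 34.1% and 45.9% in bleomycin and between 37.4% and 45.2% in celastrol skin. Bgn held 3.99% and 2.63% in PBS. It held 7.06%, 12.5% and 9.32% in Bleomycin 2, 3 and 4 and 7.94%, 5.36% and 14.1% in Celastrol 2, 3 and 5, all above PBS. Within a library, the ratio of Dcn to Bgn values was 11.1 and 17.2 in PBS, 5.64, 2.61 and 4.71 in bleomycin, and 5.45, 7.5 and 2.54 in celastrol skin. The ratio was 3.36-fold lower in bleomycin than in PBS skin, with no overlap (exact permutation test, two-sided p = 0.2, the smallest that 2 against 3 libraries allow). For celastrol against PBS it was 2.94-fold lower (exact permutation p = 0.2).

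**Figure D3:**
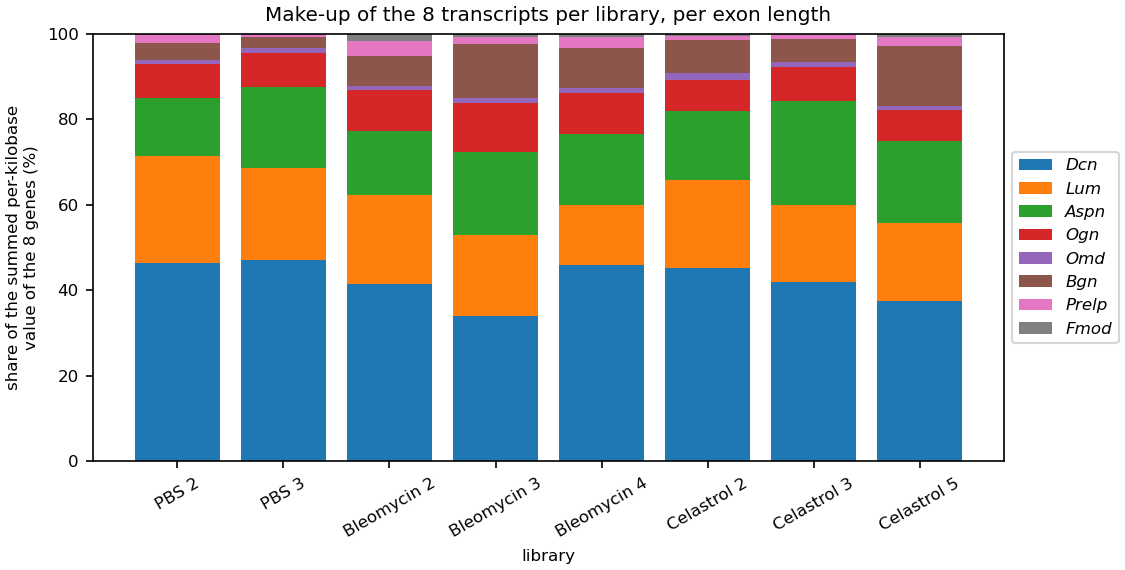
Share of each gene in the summed per-kilobase value of the 8 genes, by library, with bars stacked to 100%. Dcn is the largest part in every library, and the share of Bgn is 3.99% and 2.63% in the PBS libraries and between 5.36% and 14.1% in the others.

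The ratio of Dcn to its neighbour Lum stayed between 4.32 and 7.81 in all 8 libraries (exact permutation p = 1 for bleomycin against PBS). The ratio of Lum to Fmod, relatives that compete for a site on collagen, was 40 and 109 in PBS, 9.29, 18.9 and 12.5 in bleomycin, and 24.7, 121 and 20.5 in celastrol skin. Every bleomycin library lay below both PBS libraries (5.09-fold lower, exact permutation p = 0.2) and below every celastrol library (3.04-fold higher in celastrol, exact permutation p = 0.1, the smallest that 3 against 3 allow). Celastrol 3, with an estimated 23 Fmod reads, gave the highest of these ratios, and without it the log2 difference of celastrol from bleomycin went from 1.60 to 0.793. For bleomycin against PBS the log2 difference of -2.35 became -3.07 without PBS 2 and -1.62 without PBS 3. The ratio of Aspn to Ogn was 1.55 and 2.19 in PBS skin, 1.46, 1.58 and 1.60 in bleomycin skin and 2.04, 2.73 and 2.44 in celastrol skin. Celastrol skin was 1.54-fold higher than bleomycin skin with no overlap (exact permutation p = 0.1). Against PBS skin it was 1.29-fold higher and overlapped (exact permutation p = 0.4). Adjusted over the 21 tests of this family, the smallest p was 0.525. The ratios of this family were all chosen with earlier results of these data known.

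Relatives of the family that are not members gave 1 call. Of 10 such genes 9 were in the table and 7 were tested, and 1 fell and 6 did not pass for bleomycin against PBS (median -0.45). Ecm2, the neighbour of Aspn, stood at 3898 and 5522 in PBS, at 1084, 1004 and 862 in bleomycin skin and at 1055, 1458 and 554 in celastrol skin. Its change was -2.24 ± 0.35 for bleomycin (limma adjusted p = 0.0215) and -2.29 ± 0.35 for celastrol against PBS (limma adjusted p = 0.0131). In fits without 1 library it did not pass for bleomycin without PBS 2, PBS 3, Bleomycin 3 or Bleomycin 4 (adjusted p up to 0.19), and for celastrol without PBS 3 (0.122). For celastrol against PBS 1 of the 7 fell (median -1.18), and 0 of 7 passed for celastrol against bleomycin.

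Genes that build the sugar chains did not pass. Of 21 tested genes of chondroitin and dermatan sulfate synthesis, 0 passed in any of the 3 comparisons, with medians of -0.36 for bleomycin against PBS, -0.56 for celastrol against PBS and -0.18 for celastrol against bleomycin. The smallest adjusted p for bleomycin was that of Dsel, a dermatan sulfate epimerase-like gene, at -0.77 ± 0.18 (limma adjusted p = 0.11). Of 5 tested genes of keratan sulfate synthesis 0 passed in any comparison, and 1 passed for celastrol against PBS without Celastrol 5. Among 22 genes of ligands and receptors that bind these proteoglycans, 0 passed, and Tgfb2 stood at -1.23 ± 0.37 for bleomycin against PBS (limma adjusted p = 0.268). Among 25 tested genes of large and cell-surface proteoglycans 0 passed, and their median for bleomycin against PBS was -0.03. Of these 25 genes 2 passed for bleomycin and 3 for celastrol against PBS without Bleomycin 2, and 1 for celastrol without Celastrol 3.

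Of 16 genes of proteases and their enhancers, 0 passed for bleomycin against PBS (median -0.69), and 1 rose and 1 fell for celastrol against PBS. The collagenase gene Mmp13 stood at 64.0 and 21.0 in PBS and at 1730, 405 and 552 in celastrol skin, and rose by 4.27 ± 0.83 (limma adjusted p = 0.0367), or by 5.05 without PBS 2 and 3.49 without PBS 3. Pcolce2, an enhancer of procollagen processing, stood at 2050 and 2000 in PBS and at 271, 719 and 189 in celastrol skin, and fell by 2.60 ± 0.53 (limma adjusted p = 0.0439). The count was 0 without PBS 2, PBS 3, Bleomycin 4, Celastrol 2 or Celastrol 5 for celastrol against PBS, and 6 without Bleomycin 2. For bleomycin against PBS it was 4 without Bleomycin 2 and 2 without Celastrol 3.

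Collagens are the binding partners of these proteins, and the list used here holds fibrillar and fibril-associated collagens and collagen VI. Of 14 such genes 3 fell and 11 did not pass for bleomycin against PBS (median -1.56), and 6 fell and 8 did not pass for celastrol against PBS (median -2.01). Col3a1, Col5a2 and Col1a2 were those that fell in bleomycin skin, with changes of -3.59, -1.91 and -4.46 (limma adjusted p = 0.0274, 0.031 and 0.031). Without 1 library the change of Col1a2 ranged from -5.34 (without Bleomycin 2) to -3.84 (without PBS 2), and that of Col3a1 from -4.25 to -3.05 with the same libraries left out. The counts were 0 for bleomycin without PBS 2, PBS 3, Bleomycin 3 or Bleomycin 4, and 0 for celastrol without PBS 2, PBS 3, Celastrol 2 or Celastrol 5. Col1a1 was far more uneven between libraries than Dcn, at 200815 and 48044 in PBS, 18991, 1482 and 1238 in bleomycin, and 1261, 5061 and 1656 in celastrol skin. The ratio of Dcn to Col1a1, a pair chosen with the values known, was 0.259 and 1.30 in PBS, 0.947, 6.32 and 11.2 in bleomycin, and 11.1, 5.19 and 5.14 in celastrol skin. The celastrol ratios were all above those of PBS (11.5-fold, exact permutation p = 0.2), a log2 difference of 3.52 that became 2.36 without PBS 2 and 4.68 without PBS 3, and those of bleomycin overlapped with PBS through Bleomycin 2 (exact permutation p = 0.4).

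The summed values of the members and of fibroblast markers were both lower in treated than in PBS libraries. The 8 members took 0.344% and 0.392% of all values in PBS, between 0.0797% and 0.135% in bleomycin and between 0.0628% and 0.173% in celastrol skin. The 20 fibroblast markers took 0.214% to 0.333% in PBS, 0.0808% to 0.179% in bleomycin and 0.0772% to 0.107% in celastrol skin. Of these markers 3 fell and 17 did not pass in each comparison with PBS (medians -1.36 and -1.39), and the 3 were Dpt, Prrx1 and Cd34 both times. None of the markers passed for bleomycin without PBS 2, PBS 3, Bleomycin 3 or Bleomycin 4, or for celastrol without PBS 2, PBS 3 or Celastrol 5. The sum of the members over that of the markers was 1.03 and 1.83 in PBS, 0.752, 0.986 and 1.07 in bleomycin, and 0.925, 1.61 and 0.814 in celastrol skin, so the groups overlapped (exact permutation p = 0.4 for either treatment against PBS). In homogenate, fewer fibroblasts and less RNA per fibroblast cannot be told apart.

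Markers of other cell types gave calls in some lists and none in others. Skeletal muscle markers took 0.392% to 0.527% in PBS, 0.513% to 0.917% in bleomycin and 0.888% to 1.18% in celastrol skin, and 1 of 16 rose for bleomycin and 7 of 16 for celastrol against PBS (0 without Celastrol 5). Keratinocyte markers took 0.898% to 1.91%, 0.920% to 1.90% and 1.13% to 1.53%, and 1 of 10, Flg, rose in each comparison with PBS, by 1.81 and 2.40 (limma adjusted p = 0.0144 and 0.00379). By sign the 10 keratinocyte markers were split in both comparisons, 5 lower and 5 higher, with medians of 0.042 and 0.085. Of 8 tested tendon and fascia markers, which matter for Fmod and Omd, 1 fell in each comparison with PBS. This was Tnmd, at 529 and 545 in PBS and between 48.5 and 114 in the 6 treated libraries, while the listed genes Scx, Comp and Ptgis were at 0 in some library. Macrophage markers took 0.0933% to 0.107% in PBS, 0.111% to 0.136% in bleomycin and 0.0821% to 0.121% in celastrol skin, so celastrol overlapped with PBS. By sign 3 of the 12 were lower and 9 higher in each comparison with PBS. Of these 12 markers 1, Fcgr1, passed in each, and rose by 4.05 and 4.18 (limma adjusted p = 0.0366 and 0.0241). It stood at 111 and 9.93 in PBS skin, and its changes were 2.37 and 2.504 without PBS 3 and 5.73 and 5.86 without PBS 2. For bleomycin against PBS the calls of Tnmd, Myh1, Flg and Fcgr1 were all lost without PBS 3, Bleomycin 3 or Bleomycin 4. The call of Tnmd was also lost without PBS 2 or Celastrol 5, and that of Myh1 without PBS 2, Bleomycin 2 or Celastrol 5. Leaving out Celastrol 2, Celastrol 3 or Celastrol 5 also lost the call of Fcgr1. For celastrol that of Fcgr1 was lost without Celastrol 2 or Celastrol 5, and that of Tnmd without PBS 2, PBS 3 or Celastrol 5. Endothelial markers gave 1 lower of 10 (Tek) for celastrol against PBS. Smooth muscle and pericyte markers gave 2 higher of 10 (Des and Rgs5) in that comparison. Des is also in the skeletal muscle list and is 1 of the 7 counted there. For bleomycin against PBS these 2 lists gave 0 of 10 each. Adipocyte, hair follicle, Schwann cell and cartilage and bone markers gave 0 in all 3 comparisons. The call of Tek was lost without PBS 2, PBS 3, Bleomycin 4, Celastrol 2 or Celastrol 5, that of Des without PBS 3 or Celastrol 5, and that of Rgs5 in 7 of 8 fits without 1 library, all but the fit without Bleomycin 2. The part of these cell types in the results on the members was not tested.

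**Figure D4:**
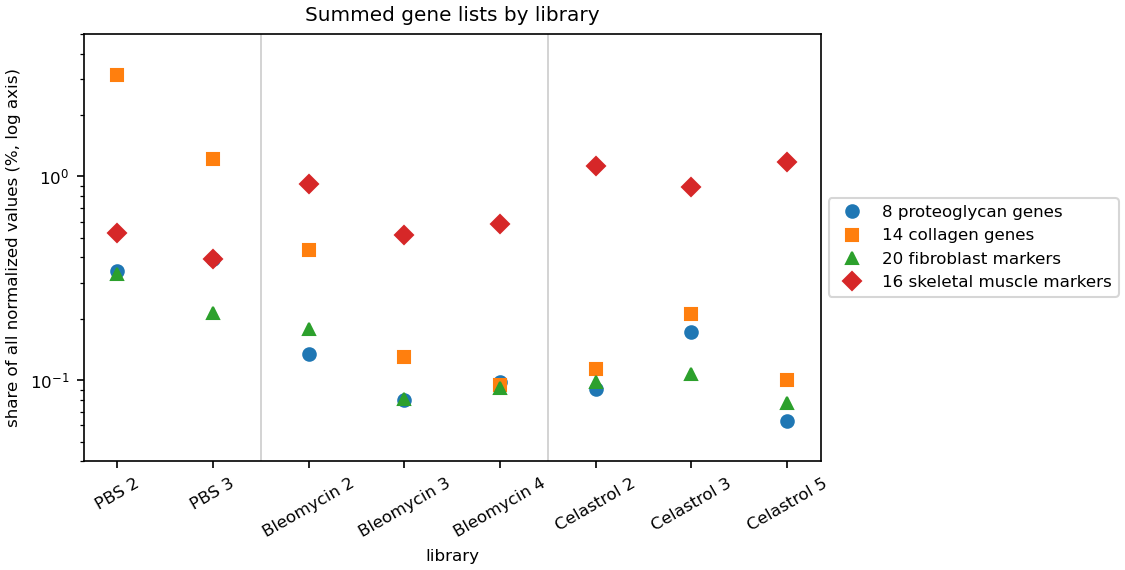
Share of all normalized values (log axis) taken in each library by the 8 proteoglycan genes, 14 collagen genes, 20 fibroblast markers and 16 skeletal muscle markers. The proteoglycans take 0.344% and 0.392% in PBS and at most 0.173% elsewhere, and the muscle markers take 0.888% to 1.18% in the celastrol libraries, 0.917% in Bleomycin 2 and at most 0.582% in the rest.

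The genes whose profile was most like that of the members included other matrix genes. Likeness was Pearson's r over the 8 libraries with the mean standardized profile of the 8 members. It was 0.998 for Adamts2, the protease that removes the N-terminal propeptide of procollagen, at 4790 and 2920 in PBS, 1240, 625 and 572 in bleomycin and 389, 1050 and 373 in celastrol skin. It was 0.993 for Paqr7, 0.991 for Dpt, 0.990 for Ift172, 0.989 for Serping1, 0.987 for Antxr1 and Pcolce2, and 0.984 for Tmem164. These genes were picked for the highest r among tested genes with a mean of at least 50, over only 8 libraries. A high r does not measure the size of a change. Ift172 stood at 706 and 670 in PBS and between 467 and 611 in the treated libraries. Members themselves followed the mean profile unevenly, at r of 0.371 for Fmod, 0.752 for Bgn, 0.759 for Prelp and 0.873 to 0.968 for the others. For single members the most similar genes were Ctsk for Dcn (r = 0.991), Fat4 for Lum (0.990), Arhgap6 for Ogn (0.995), Itgbl1 for Aspn (0.975) and Nova1 for Omd (0.990). They were Commd7 for Bgn (0.972), C1ra for Prelp (0.986) and Atp13a2 for Fmod (0.981).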

How the data were processed

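Gene values of 8 skin libraries were read from the table that the authors deposited. Its unit is a normalized signal: per the submitters' processing notes and the file headers, estimated gene counts were divided by a DESeq2 size factor per library (poscounts form), with Partek 10.0.22, STAR 2.7.3a and the mm10 build. Settings of alignment and counting, the annotation and strand use are not given in the sources used here. Between 58.5% and 66.9% of values under 1000 reads lay within 0.03 of a whole read, so counts were not recovered and no count test was run.

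Values were tested as log2 (value + 1) with limma 3.58.1 in R 4.3.3 (lmFit, eBayes with trend), 8 libraries in 1 fit without covariates. Tested genes, 23185 in number, reached 10 or more in 2 or more libraries, and 1427 were left out. All 8 members passed this filter. Log2 changes with a pseudocount understate those of low genes. Within-library ratios used SciPy 1.17.1 for exact permutation tests, and counting intervals are exact Poisson intervals at 95% that cover counting error only. Positions and merged exons come from GENCODE M21, where 23718 of 24612 genes had the table's span. The fit was tested on simulated data for bleomycin against PBS only, with independent noise for each gene. Such data hold no effect shared by a whole library, so they do not test the calls against one.

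The members, 18 further lists and the tests were chosen with earlier results of these data known. All members were named, with, per list and comparison, up to 4 genes that passed or the 1 with the smallest p, of which the text gives some, and the 8 genes most similar in profile plus 1 per member, with a mean of at least 50 and no predicted genes. Alternatives varied the pseudocount, filter, scaling, weights, variance model, libraries and a replicate block.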

Additional observations from a re-analysis of the deposited data

How the results depend on the processing

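Against PBS, the sign of the change was lower for Dcn, Lum, Ogn, Aspn, Omd and Bgn in all 21 alternatives, but the number of members that passed was not stable. For bleomycin against PBS it was 2, and became 1 with a pseudocount of 0.1, a mean of at least 50, equal library totals or robust estimation, 5 with library weights, and 0 without the variance trend or with only the groups compared. For celastrol against PBS it was 3, and became 1 with a pseudocount of 0.1 or robust estimation, and 0 without the trend or with only the groups compared. Leaving out 1 library gave 0 to 4 in either comparison. For celastrol against bleomycin 0 members passed in all 21 alternatives. Of all genes 157 passed for bleomycin against PBS, 711 with library weights, 7 without the trend, 46 with only the groups compared, and 16 to 229 when 1 library was left out. For celastrol against PBS 317 passed, 19 without the trend, 159 with only the groups compared, and 38 to 418 when 1 was left out. With equal library totals 140 of these rose and 138 fell, beside 191 and 126. For celastrol against bleomycin 0 passed, 2 without the trend and 0 to 1 when 1 was left out. The replicate numbers 2 and 3 recur between groups without a stated meaning. Deviations of libraries from their group means correlated at r between -0.005 and 0.203 for the same number (6 pairs), and between -0.203 and 0.123 for others (15 pairs). With only 2 PBS libraries, the deviations of PBS 2 and PBS 3 mirror each other, so the r with Bleomycin 2 was 0.203 and -0.203. The 2 ranges are therefore tied to each other and cannot decide whether the numbers pair libraries. With a replicate block 17 and 41 genes and 0 and 0 members passed against PBS. An alternative chosen after seeing the data left out the 3 libraries of lowest estimated depth (Bleomycin 3, Celastrol 2 and Celastrol 3). It gave 0 and 4 genes and 0 and 0 members against PBS, with a lone celastrol library assumed to vary like the other groups. For celastrol against bleomycin the sign then turned for Dcn (-0.893), Lum (-0.559), Aspn (-0.384), Omd (-1.068), Bgn (0.129) and B3gnt2 (0.114). It also turned for Omd with equal totals (-0.102), Dcn with quantile normalization (-0.034), and Dcn (-0.062), Bgn (0.093) and Omd (-0.19) with library weights. Library weights turned Fmod for bleomycin against PBS (-0.202). Leaving out 1 library turned Prelp (-1.367 to 0.186) and Fmod (-0.649 to 0.79) for bleomycin against PBS. For celastrol against bleomycin it turned Dcn (-0.285 to 0.528), Bgn (-0.142 to 0.086), Omd (-0.343 to 0.528), Lum (-0.17 to 0.544), Aspn (-0.269 to 0.623) and Ogn (-0.796 to 0.016). The cause was not tested. Depth limits Fmod most, with as few as 23 estimated reads.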
